A study of Mus musculus with 9 samples.

Results

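Macrophages were 1 of 17 cell populations that the authors named in mouse bone marrow, and they are described here by the 20 genes listed for them in the authors' table of top marker genes, out of 293 entries in all. The members are the rows of that table under the name Macrophages. Mononuclear marrow cells of 9 C57BL/KaLwRij mice, aged 12 weeks per the labels, had been profiled by droplet-based single-cell RNA-Seq, with 3 mice labelled CST6, 3 labelled PBS, 2 labelled Control and 1 with no label for its agent. In the study, the CST6 and PBS mice carried 5TGM1 myeloma, a mouse tumor that grows in the marrow, and received recombinant mouse Cst6 (a cystatin, which blocks lysosomal cysteine proteases) or vehicle, while Control mice had no tumor, and GFP-marked tumor cells were sorted out of the samples before sequencing. The title of 1 mouse labelled PBS follows those of the Control mice, so the group sizes are uncertain. The table pools all mice and holds no value for a mouse or group. The effects of tumor and Cst6 on these cells were therefore not analysed here, no value below has a replicate error, and the depth per sample is unknown.

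Macrophages are phagocytes that take up particles and dying cells, digest them in lysosomes and release chemokines that call in further leukocytes. In marrow they stand in one lineage with monocytes, from which, under M-CSF and RANKL, the bone-resorbing osteoclasts also form. A classical mouse monocyte carries Ly6C and leaves the marrow through the receptor Ccr2, a nonclassical one patrols vessels and depends on the factor Nr4a1, and a resident marrow macrophage is known by genes such as Adgre1, which encodes F4/80, and the complement genes C1qa, C1qb and C1qc.

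In the authors' table, the list of Macrophages was led by Ctss, Fn1 and Lgals3, and its genes coded for lysosomal proteins, matrix and clotting proteins, chemokines, Ms4a membrane proteins and interferon-inducible proteins. Each entry compares Macrophages with all other cells of the 9 mice together. A gene's score is the area under the receiver operating characteristic curve (AUC), which is 0.5 for a gene that does not separate the cells and 1 for full separation. Over the 20 members the AUC ran between 0.818 (S100a4) and 0.910 (Ctss), with a median of 0.878, against a median of 0.874 over all 293 entries. The log2 fold change ran between 1.80 (Npc2) and 2.48 (Fn1), that is between 3.48-fold and 5.59-fold, with a median of 1.97 against 2.06 over all entries. A log2 fold change of at least 2 was listed for 9 of the 20 members, which is 45% against 53.9% of all entries. An AUC of at least 0.85 was reached by 18 members, or 90% against 67.9%. These genes helped to form and name the cluster, so the values describe it and were not tested.

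The members were alike in the size of their fold changes. Their log2 fold changes spanned 0.69, which was the narrowest span of the 11 populations with 20 listed genes. Lymphomyeloid prog II came next with 0.81, Monocyte prog I spanned 0.90 and Monocytes 1.54 on the same scale, while Eosinophil/Basophil prog spanned 4.69. With fewer genes, Immature Neutrophils I spanned 0.62 over 15 and Lymphomyeloid prog I 0.55 over 6, so a narrow span was not particular to Macrophages. No member of the Macrophages list therefore stood apart as the top genes of some other populations did.

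**Figure D1:**
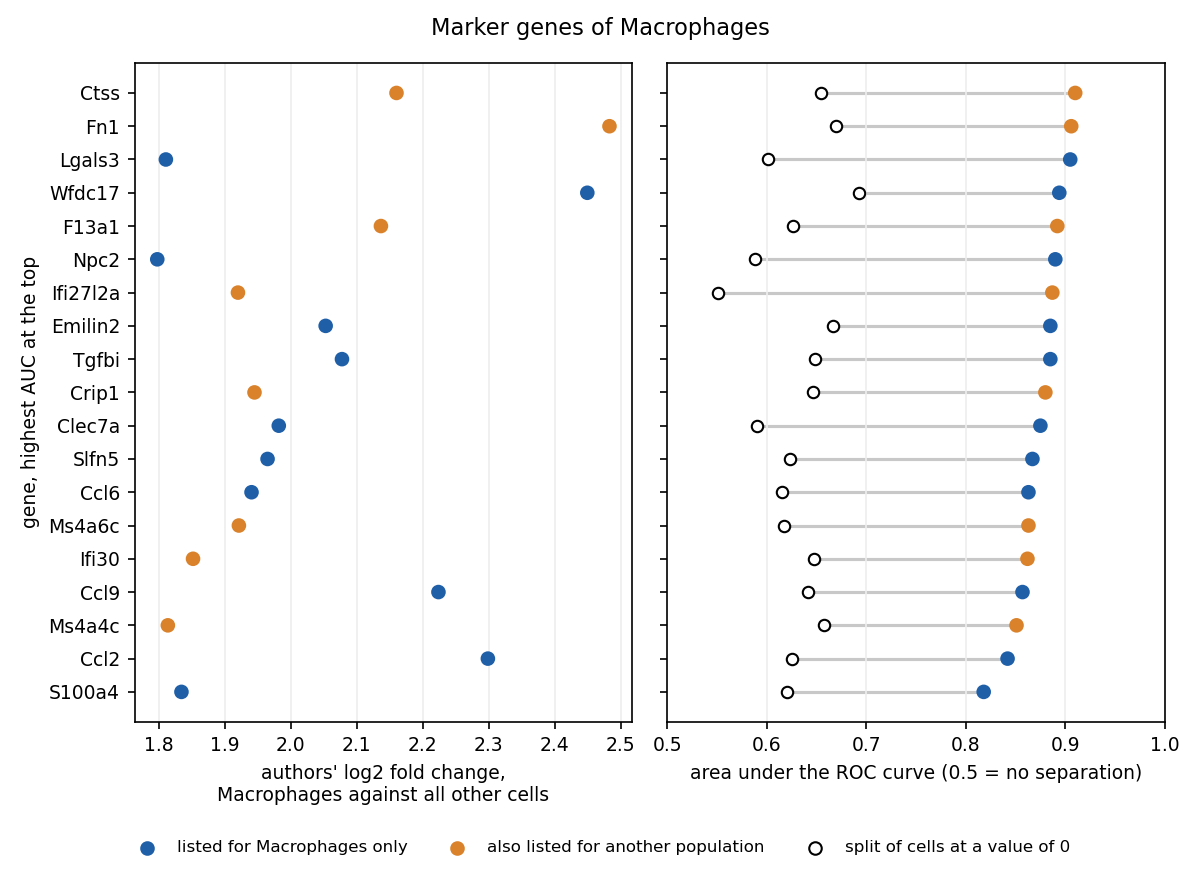
The left panel plots the authors' log2 fold change of 19 of the 20 members, Macrophages against all other cells, and the right panel their AUC (filled) beside the AUC of a mere split of cells at a value of 0 (open). Orange points are genes that another population also lists; fold changes lie between 1.80 and 2.48, and every filled point lies to the right of its open one.

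The genes Fn1, Ccl2, Wfdc17 and Ctss had served to pick this population for description, and their place on its list is no check of its name. Of 11 classical monocyte genes, Macrophages listed 5, namely Fn1, F13a1, Ms4a6c, Ms4a4c and S100a4, while Monocyte prog I listed 3, Monocytes 2 and all 17 populations together 6. Of the genes of mature macrophages, Adgre1, C1qa, C1qb, C1qc, Cd68, Mrc1 and Vcam1 were listed for none of the 17 populations, so that their absence says nothing particular of Macrophages, and the count over that list is not reported here. Of 9 nonclassical monocyte genes, Macrophages listed 0 and all populations together 4. Macrophages listed 0 of 13 neutrophil granule and calprotectin genes, all 13 of which were listed for some population, 0 of 16 lymphoid and dendritic genes, against 13 over all populations, and 0 of 15 cell cycle genes, against 10. Erythroid genes were listed for no population, with 0 of 6. A gene that is not listed was only outside the top 20, and its level in these cells is not known. The study's methods name Adgre1 among the markers of its macrophages, although it was outside the listed genes. The name Macrophages is the authors' and is kept on these terms.

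Lysosomal and uptake genes, grouped here after the list was seen, were spread over the list, with places 1, 3, 6, 11 and 15 by AUC. Ctss encodes cathepsin S, a cysteine protease of the lysosome that trims the invariant chain of MHC class II and belongs to the enzymes that cystatins block. It had the highest AUC, 0.910, a log2 fold change of 2.16, and a value above 0 in 99.4% of Macrophages against 68.6% of all other cells in the authors' table. Npc2, which carries cholesterol out of the lysosome, had an AUC of 0.890 with a log2 fold change of 1.80. Ifi30, a lysosomal thiol reductase that opens proteins for antigen presentation, stood at 0.862 and 1.85. Lgals3, the lectin galectin-3 known as the macrophage antigen Mac-2, had 0.905 and 1.81, and Clec7a, the beta-glucan receptor dectin-1, had 0.875 and 1.98. Ctss was thus the strongest of these genes by both scores. Of 20 lysosomal proteases and cystatins, Ctss was the only 1 listed for Macrophages, whereas Monocytes listed 3, Ctss, Cst3 (cystatin C) and Ctsb (cathepsin B), and all populations together 5. Of 23 osteoclast differentiation genes, Macrophages listed 0 and Monocytes 1, Csf1r, the receptor of M-CSF, and with 3 over all 17 populations such genes were rare in the whole table.

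Matrix and clotting genes included the largest log2 fold change of the list. Fn1 encodes fibronectin, an adhesive matrix protein, and had a log2 fold change of 2.48, which is 5.59-fold, with a value in 96.7% of Macrophages against 62.8% of other cells in the authors' table. F13a1, the A subunit of factor XIII, which cross-links fibrin, had 2.14 and 98.1% against 72.9%. Tgfbi, a matrix protein induced by TGF-beta, had 2.08, and Emilin2, a glycoprotein of the extracellular matrix, had 2.05. All 4 lay above the members' median of 1.97. Emilin2 and Tgfbi were in none of the gene lists and were placed in this group after the members were seen. Of 13 matrix, clotting and adhesion genes, Macrophages listed 2, Fn1 and F13a1, Monocyte prog I 3, Monocytes 1 and all populations together 4.

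Of the 3 chemokine genes, Ccl2 and Ccl9 had log2 fold changes above the members' median and all had an AUC below it. Ccl2, which draws Ccr2-bearing monocytes, had a log2 fold change of 2.30, the third highest of the list, yet with 0.842 the 19th AUC, and a value in 88.9% of Macrophages against 63.9% of other cells. Ccl9, a ligand of Ccr1 in the mouse, had 2.22 with an AUC of 0.857, and its neighbour Ccl6 had 1.94 with 0.863. Wfdc17, a small WAP-domain protein of activated macrophages, had 2.45 with an AUC of 0.894. Macrophages listed 3 of 11 chemokine genes of myeloid cells, Monocytes and Monocyte prog I listed 0 each, and all populations together 4. Of 11 chemokine and cytokine receptor genes, 1 was listed in the whole table, Csf1r for Monocytes, so the 0 of Macrophages is not particular to them.

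Of the remaining members described, S100a4, a calcium-binding protein of motile cells, had the lowest AUC of the list and a value in 86.5% of Macrophages against 62.4% of other cells. Crip1, a small LIM-domain protein, had a log2 fold change of 1.94.

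The Ms4a and interferon-inducible members were for the most part also listed for Monocytes, and Ms4a6c for Monocyte prog I too. Ms4a6c and Ms4a4c, membrane proteins of myeloid cells, had log2 fold changes of 1.92 and 1.81. Ifi27l2a, induced by interferon, had 1.92 and a value in 100% of Macrophages but also in 89.9% of other cells, the highest share outside on this list. Slfn5, an interferon-inducible Schlafen gene, had 1.96, and among these it alone was listed for Macrophages only. A list of 15 interferon-inducible genes fixed for this description held neither Slfn5 nor Ifi30, which is described above with the lysosomal genes. Of these 15, Macrophages listed 1, Monocytes 3 and all populations together 6.

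Detection alone separated Macrophages poorly, and this was not particular to them. All members had a value in 86.5% to 100% of Macrophages and in 56.1% to 89.9% of all other cells, with medians of 96.4% and 68.1%. In 8 of the 20 the share of other cells was at most 65%, which is 40% against 44.7% of all entries. The gap was widest for Wfdc17, at 38.6 percentage points, followed by Fn1 at 33.9 and Emilin2 at 33.4, and narrowest for Ifi27l2a at 10.1. A mere split of the cells at a value of 0 would give an AUC of 0.693 for Wfdc17, 0.654 for Ctss and 0.551 for Ifi27l2a, against their listed AUC of 0.894, 0.910 and 0.887. Over the 20 members such a split gave a median of 0.630 beside a listed median of 0.878. The median of the split was 0.6405 over all 293 entries, 0.606 for Monocytes and 0.628 for Monocyte prog I. The rest of the listed AUC came from the order of cells by level, beyond the mere presence of a value. Whether the shares rest on UMI counts or on batch-integrated values is not stated, and free RNA in droplets can also give a value, so a share is not a share of cells that express the gene.

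**Figure D2:**
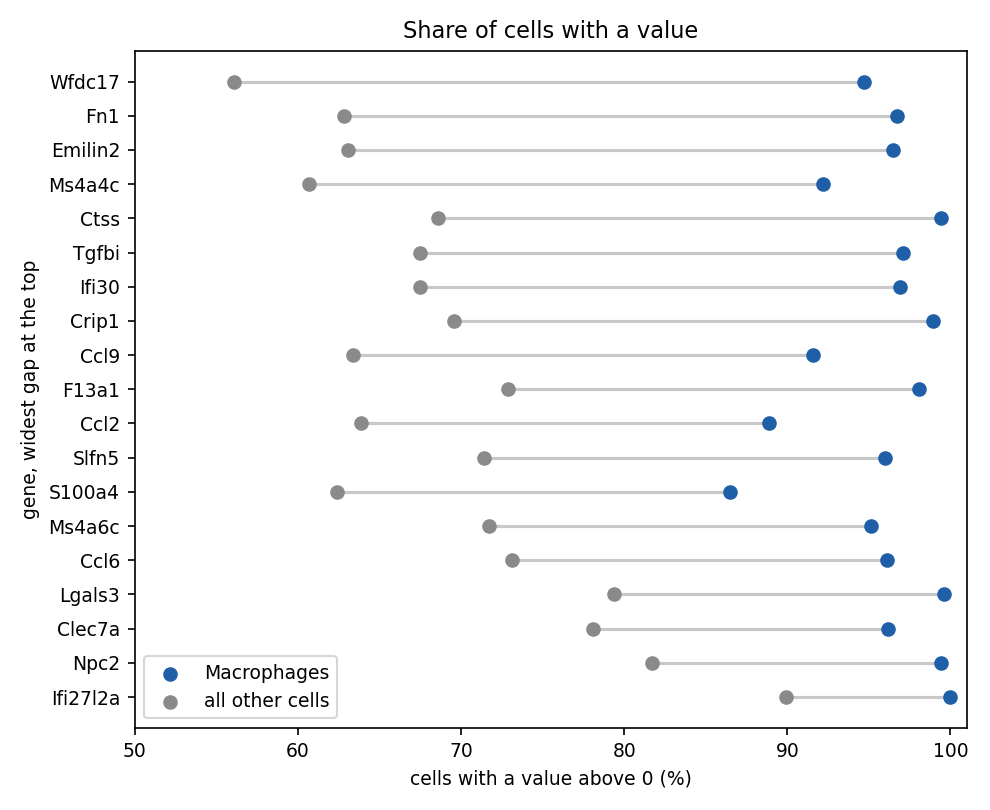
Each line joins the percentage of Macrophages with a value above 0 (blue) to that of all other cells (grey) for 1 member, with 19 of the 20 shown, in the authors' table, on an axis that begins at 50%. The blue points lie between 86.5% and 100% and the grey ones between 56.1% and 89.9%, and the gap narrows from 38.6 points for Wfdc17 at the top to 10.1 for Ifi27l2a at the bottom.

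The shares in the table also bound how many cells the population held. For a gene listed for several populations, the share over all cells must come out the same from each of its entries, and 50 genes with 109 entries were of this kind. Solved together, with every share allowed its rounding of 0.05 percentage points and the 17 populations summing to all cells, they left Macrophages between 10.6% and 11.6% of all cells. Monocyte prog I came to between 9.05% and 10.1%, and Monocytes to between 1.52% and 2.82%. Macrophages exceeded Monocyte prog I by between 1.46 and 1.74 percentage points and Monocytes by between 8.47 and 9.14, and both differences stayed above 0 without the requirement on the sum. The calculation assumes that all shares were counted over the same cells, and it says nothing of single mice. At this size, between 14.6% and 16.0% of all cells with a value for Ctss were Macrophages, and between 16.6% and 18.2% of those with a value for Wfdc17, the highest share of the list. The lowest was that of Ifi27l2a, between 11.6% and 12.8%. Most cells with a value for any of these genes therefore lay outside Macrophages.

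**Figure D3:**
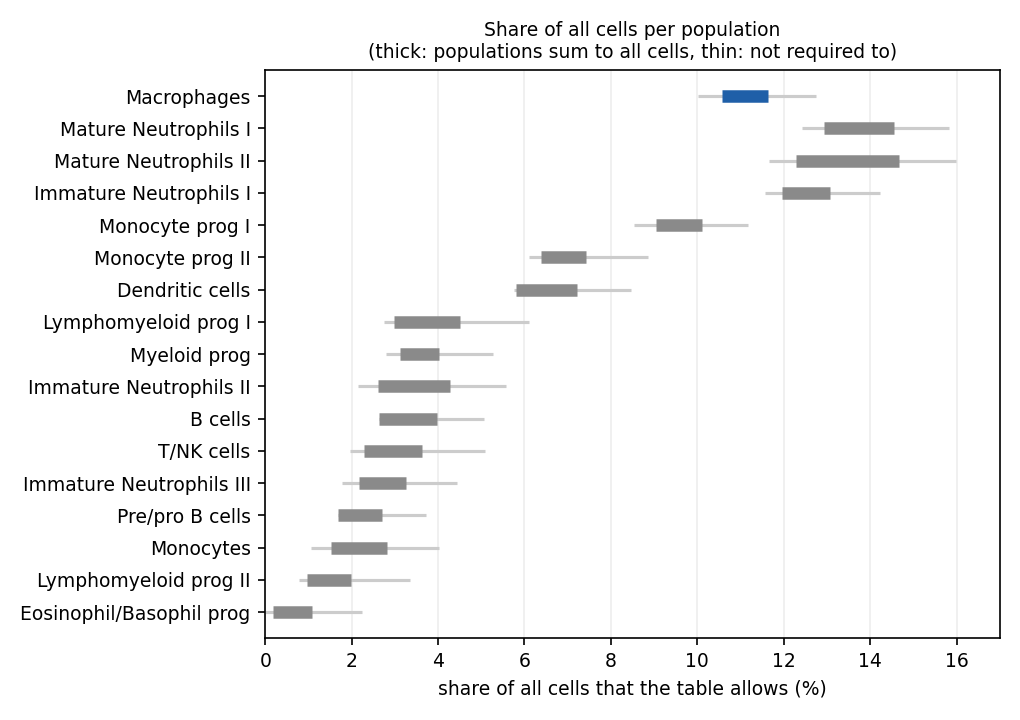
The bars show, for Macrophages (blue, top) and the other 16 populations (grey), the range of its share of all cells in percent that the rounded shares of the authors' table allow. Macrophages lie between 10.6% and 11.6% when the populations must sum to all cells (thick) and between 10.03% and 12.7% without that requirement (thin).

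Of the 20 members, 8 were also listed for another population, or 40%, and all of these other populations carried monocyte in their name. In the whole table, 109 of 293 entries were of genes listed for more than 1 population, and this is the measure that matches. By different genes it was 50 of 234, or 21.4%. Monocyte prog I had 10 of 20 such genes and Monocytes 5 of 20, so such sharing was not particular to Macrophages. Macrophages shared 5 of 20 genes with Monocyte prog I, 4 of 20 with Monocytes and 1 of 20 with Monocyte prog II, and 0 with each of the other 13 populations. Only F13a1 and Ms4a6c were listed for 3 populations. The other cells of each entry include the neighbouring populations, so the fold changes set side by side share most of their cells and their differences were not tested.

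With Monocyte prog I the shared genes were Fn1, F13a1, Crip1, Ms4a6c and Ifi30. The log2 fold change was greater in Macrophages for 5 of 5 in the authors' table, by 0.07 for F13a1, 0.20 for Crip1, 0.21 for Fn1, 0.37 for Ms4a6c and 0.38 for Ifi30. For F13a1 the AUC ran the other way, with 0.892 in Macrophages and 0.902 in Monocyte prog I, where it led the list. Over the whole lists the median log2 fold change was also higher, 1.97 for Macrophages against 1.56 for Monocyte prog I. The share of cells with a value was greater in Macrophages for only 1 of the 5. It was 96.7% of Macrophages and 97.1% of Monocyte prog I for Fn1, and 95.1% and 97.6% for Ms4a6c. What Monocyte prog I listed and Macrophages did not was led by Itga1 (the alpha chain of a collagen-binding integrin) with an AUC of 0.892, Tubb5 (a tubulin) with 0.884, Top2a (the topoisomerase of dividing cells) with 0.883, S100a10 with 0.878 and Prc1 (a protein of the mitotic spindle) with 0.873. Of 15 cell cycle genes, Macrophages listed 0 and Monocyte prog I listed 7, among them Mki67 and Birc5. Fibronectin and factor XIII were thus common to both lists, and genes of division stood on that of the progenitors.

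With Monocytes the shared genes were Ctss, Ms4a4c, Ms4a6c and Ifi27l2a. Ctss led both lists, with a log2 fold change of 2.16 in Macrophages and 2.14 in Monocytes. Ms4a6c had 1.92 in Macrophages and 1.62 in Monocytes, and Ifi27l2a had 1.92 and, in Monocytes, 1.42. Ms4a4c alone ran the other way, with 1.81 in Macrophages and 2.13 in Monocytes, although its AUC was 0.851 in Macrophages and 0.838 in Monocytes. Apart from these, Monocytes were led by Cebpb (a transcription factor of myeloid cells) with an AUC of 0.893, Gngt2 (a G protein subunit) with 0.893, Ace (angiotensin-converting enzyme) with 0.885, Ifitm3 with 0.876 and Clec4a3 with 0.865. Of the nonclassical monocyte genes, Macrophages listed 0 and Monocytes 3, Ace, Nr4a1 and the Fc receptor gene Fcgr4.

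**Figure D4:**
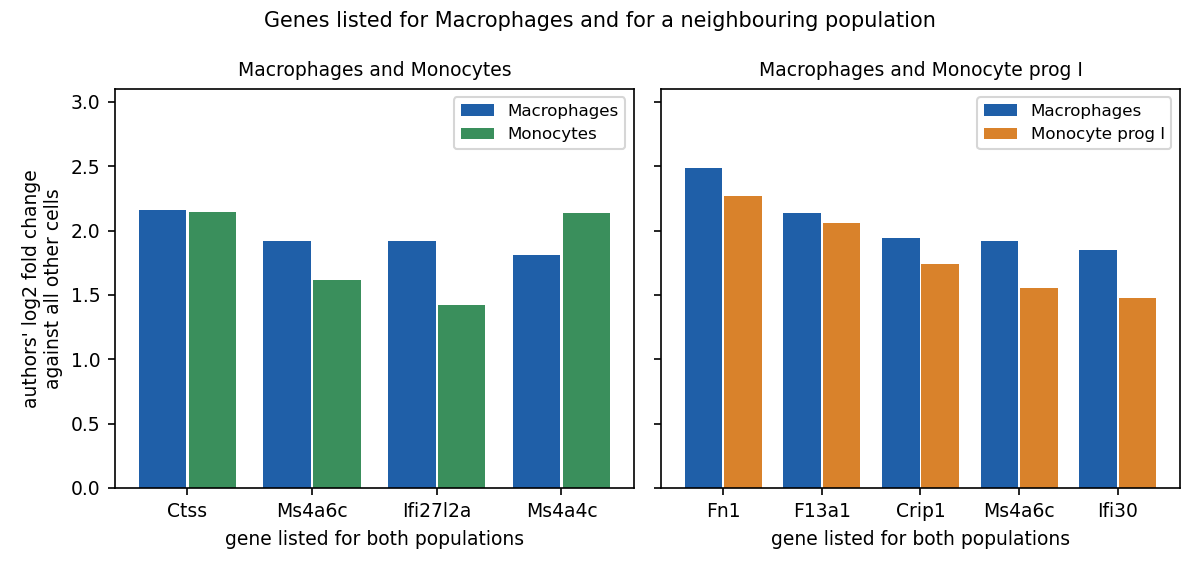
The bars give the authors' log2 fold change against all other cells for genes listed for Macrophages (blue, left of each pair) and for Monocytes (green) or Monocyte prog I (orange). Blue is higher in every pair but that of Ms4a4c, where Macrophages stood at 1.81 and Monocytes at 2.13.

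By position, 5 members lay on chromosome 11, or 25% against 11.3% of the 231 genes of the table with a RefSeq position, and the others were spread over 10 chromosomes. In GRCm38.p6, the assembly behind mm10, Ccl2 lies on chromosome 11 from 82035577 to 82037452, Slfn5 from 82951349 to 82964850, Ccl9 from 83572917 to 83578636, Ccl6 from 83587886 to 83593087 and Wfdc17 from 83704056 to 83706269. All 5 thus fell within a stretch of 1671 kb that holds 37 protein-coding genes in RefSeq. Ccl9 and Ccl6 are direct neighbours, 9.25 kb apart, and Wfdc17 follows Ccl6 after 111 kb with 2 protein-coding genes between them. The same stretch holds 3 genes listed for other populations only, Slfn4 for Mature Neutrophils II, Ccl5 for T/NK cells and Ccl4 for Eosinophil/Basophil prog. On chromosome 19, Ms4a4c (11404717 to 11427246) and Ms4a6c (11469353 to 11487182) lie 42.1 kb apart. Closeness on the chromosome was not tested against other lists.

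**Figure D5:**
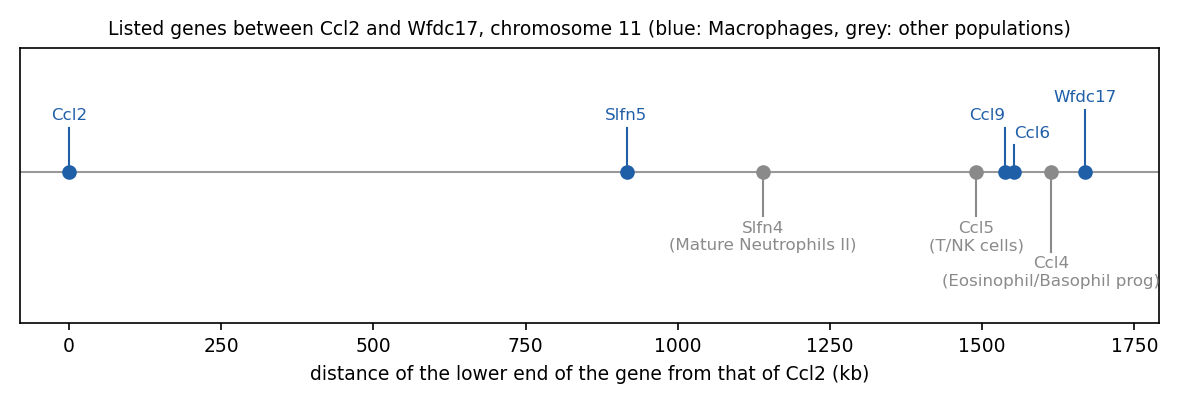
The line shows the stretch of chromosome 11 that begins at Ccl2, with distance in kb on the horizontal axis, and each point is a gene listed in the authors' table. The 5 Macrophages genes (blue) lie at 0, 916, 1537, 1552 and 1668 kb, and the 3 genes of other populations (grey) lie among them; unlisted genes are not drawn.

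Promoter windows were available for 16 members, and Fn1, Ifi27l2a and Ccl2 were among those with no entry. PU.1 is the factor that sets up the myeloid lineage and binds DNA around a GGAA core, so the letters GAGGAA, or TTCCTC on the other strand, were searched in the 250 bases before each RefSeq start. They stood in 5 of the 16 members, Ctss, Wfdc17, F13a1, Clec7a and Ms4a4c, or 31.2% against 25.9% of 27025 genes. The share in the members was near that of all genes. The AP-1 letters TGANTCA stood in 1 member, Ccl9 (6.25% against 7.82%), the C/EBP letters TTGCNNAA or TTNNGCAA in 2, Npc2 and Ifi30 (12.5% against 10.8%), and the TATA box letters TATAAA or TTTATA in 3, Ctss, Ccl9 and S100a4 (18.8% against 14.3%). A match is a string of letters and not a bound site. To show them in place, the 200 bases before a RefSeq start on GRCm38.p6 are printed for 4 of the 5 members, with GAGGAA in capitals. Only stretches with no exon in the GENCODE annotation were printed. They are chr3:95526586-95526785 on the plus strand for Ctss, chr13:37050245-37050444 on the minus strand for F13a1, chr6:129472780-129472979 on the minus strand for Clec7a and chr19:11407461-11407660 on the plus strand for Ms4a4c. The Ms4a4c stretch lies within the span of its gene (11404717 to 11427246), so its start is not the outermost end of the gene. The Clec7a stretch overlaps the end of its RefSeq gene span (129461591 to 129472785), so its start is not the outermost end either.
Ctss: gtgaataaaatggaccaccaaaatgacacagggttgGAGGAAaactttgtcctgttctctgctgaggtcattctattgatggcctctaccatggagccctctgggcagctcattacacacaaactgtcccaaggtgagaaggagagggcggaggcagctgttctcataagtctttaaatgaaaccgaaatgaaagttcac
F13a1: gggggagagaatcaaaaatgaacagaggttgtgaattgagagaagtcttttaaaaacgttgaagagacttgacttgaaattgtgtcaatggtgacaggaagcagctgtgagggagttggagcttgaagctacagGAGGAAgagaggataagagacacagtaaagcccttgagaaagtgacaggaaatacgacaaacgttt
Clec7a: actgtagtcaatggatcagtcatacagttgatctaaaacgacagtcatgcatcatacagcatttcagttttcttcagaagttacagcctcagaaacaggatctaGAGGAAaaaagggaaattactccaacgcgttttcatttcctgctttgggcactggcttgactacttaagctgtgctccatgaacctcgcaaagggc
Ms4a4c: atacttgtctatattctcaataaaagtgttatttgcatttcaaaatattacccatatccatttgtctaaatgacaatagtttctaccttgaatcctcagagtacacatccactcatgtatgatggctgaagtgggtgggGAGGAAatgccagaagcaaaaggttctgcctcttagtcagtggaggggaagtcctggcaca
The capitals begin 164 bases before the start in Ctss, 66 in F13a1, 96 in Clec7a and 61 in Ms4a4c, so their place differed from gene to gene. From a second RefSeq start of Clec7a the same letters begin 90 bases before it, and a second start of F13a1 had no match.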

How the data were processed

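Libraries were made with the Chromium Single Cell 3' kit. Per the labels and the study's methods, reads were processed with Cell Ranger on mm10 and with Seurat 4, cells were filtered on gene number and mitochondrial reads, samples were integrated by reciprocal PCA and cells were clustered. The handling of doublets is not stated there. The authors deposited 1 table of marker genes, in which the AUC and power are scores, the average difference is a natural log value, the fold change a log2 value, and the cells with a value are given as a fraction, printed here as a percentage. Power equalled 2 × AUC − 1 in all 293 entries within 1e-09. The methods name MAST, while the columns are those of Seurat's ROC test. No population had more than 20 genes, so a gene that is not listed has no known value.

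From these values, counts, medians and differences were computed with pandas 2.3.3 (Python 3.11.15), and bounds on population shares by linear programming in scipy 1.17.1, which was tested on simulated shares. No test was run, since no value per mouse was given. Gene positions and promoter sequences came from RefSeq (GRCm38.p6), in which all 20 members matched as protein-coding genes. Exons in the printed stretches were looked up in the GENCODE annotation. Genes named are the members, except 1 that is counted but not reported here by name, genes they share with other populations, the next 5 genes by AUC of Monocytes and Monocyte prog I, members of the 15 gene lists, and listed genes within the stretch of chromosome 11, which were added after their values were seen. The members, the lists and the motifs were chosen with earlier results of these data known. Alternatives were an AUC minimum, a fold change minimum, the first 10 genes, older gene symbols, and leaving out shared genes.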

Additional observations from a re-analysis of the deposited data

How the results depend on the processing

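Only entries with a log2 fold change of at least 2 left 9 of the 20 Macrophages genes, while an AUC of at least 0.85 left 18. Genes shared with Monocytes came to 1 with the first 10 genes by AUC, 1 with an AUC of at least 0.85 and 1 with the first 10 by log2 fold change, instead of 4. Those shared with Monocyte prog I came to 3, 4 and 2 under the same settings, instead of 5. The counts of shared genes thus depended on the length of the lists. The upper bound of the Macrophages share of all cells was 12.7% instead of 11.6% when populations were not required to sum to all cells, an alternative chosen after seeing the data, and the lower bound was 10.03% instead of 10.6%. The members' median log2 fold change was 2.07 with the first 10 genes and 2.02 without shared genes, and older gene symbols changed no count of listed members in any of the 15 lists. No paired analysis was possible because the table holds no values per mouse. Depth is unknown, so low genes could not be judged.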

Other observations

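The rounded shares of the authors' table could all be met at once by 1 set of population sizes, over 109 entries of 50 genes, and the ranges of the 17 populations allowed a sum of all cells. By these ranges Macrophages, with between 10.6% and 11.6% of all cells, were the fourth population by size. Mature Neutrophils I held between 12.9% and 14.6%, Mature Neutrophils II between 12.3% and 14.7% and Immature Neutrophils I between 11.95% and 13.1%, and the difference from Macrophages kept its sign over its whole range for each of these 3, and for each of the other 13 populations, with and without the requirement on the sum.

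Ctss led the lists of Macrophages and Monocytes with nearly equal log2 fold changes. Of cells with a Ctss value, between 14.6% and 16.0% were Macrophages and between 2.08% and 3.84% were Monocytes. Such ranges depend on population size: of all cells, Macrophages held between 10.6% and 11.6% and Monocytes between 1.52% and 2.82%. For Ms4a4c, whose log2 fold change was lower in Macrophages, the shares of cells with a value were between 15.2% and 16.7% for Macrophages and between 2.14% and 3.96% for Monocytes. For Fn1 they were between 15.4% and 16.9% for Macrophages and between 13.2% and 14.7% for Monocyte prog I, which held between 9.05% and 10.1% of all cells. These are values over pooled mice, and how they differ between mice or groups was not analysed here.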
